A study of Mus musculus with 8 samples.

Results

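Knockout epidermis was compared with control epidermis of mouse embryos at E15.5, the age in days of development, in the 2 libraries that the labels call E15.5 knockout and the 2 that they call E15.5 control, of 8 libraries in the series. The knockout embryos came from a cross of mice with floxed alleles of Nir, the gene Noc2l, to mice that express Cre recombinase from the promoter of keratin 14 (Krt14-Cre), and the controls were embryos with floxed Nir alleles. Epidermis was separated from the dermis in both groups before total RNA was extracted, and the labels name no treatment. The labels do not say whether a library holds 1 embryo or a pool, nor whether replicates shared a litter, so the tests measure the spread between these libraries, which may be in part technical. The other 4 libraries, 2 control and 2 knockout at E17.5, entered the fit so that the 4 groups shared 1 estimate of the spread, and they were used to ask which effects differed between the stages.

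Krt14 is switched on in basal keratinocytes, so Cre from its promoter acts in the basal layer and in the layers and follicles that descend from it. Noc2l encodes a nuclear protein that binds histones, inhibits their acetylation, associates with p53 and takes part in ribosome assembly. At E15.5 mouse epidermis is stratifying, hair placodes are forming, and epidermis and dermis exchange secreted signals of the Wnt, Hedgehog, BMP, FGF and ectodysplasin families.

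Between 27012764 and 28797281 reads were counted on genes in each of the 4 E15.5 libraries. Noc2l (chromosome 4, 156234655 to 156247616, GRCm38) stood at 107 and 97.4 CPM, read counts relative to scaled library totals, in controls and at 95.6 and 91.6 CPM in knockouts, and the change did not pass the test (log2 fold change -0.12 ± 0.10 SE, n = 2 per group, edgeR adjusted p = 0.34). Which exons are floxed is not stated, so this level does not check the labels, and "knockout" means the library so labelled. In all 4 libraries the Y-linked gene Ddx3y stood between 47.5 and 59.3 CPM and Xist at no more than 1.69 CPM.

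Markers of several cell types moved with the genotype, though not all upward. The 8 basal keratinocyte markers summed to 7492 and 7033 CPM in controls and to 1966 and 2039 CPM in knockouts, and 8 of 8 fell; the 8 suprabasal markers summed to 87513 and 92789 against 6502 and 6254 CPM, and 8 of 8 fell. The 12 dermal fibroblast markers summed to 33100 and 34917 CPM in controls and to 99375 and 80386 CPM in knockouts, and 12 of 12 rose, with a median log2 fold change of 1.23. Of the endothelial markers 10 of 10 rose (summed 528 and 525 against 869 and 893 CPM), of the macrophage and myeloid markers 9 of 9 (235 and 232 against 532 and 515 CPM), of the mast cell markers 4 of 5 (1977 and 2277 against 3853 and 4296 CPM) and of the erythroid markers 9 of 9 (10658 and 7571 against 76387 and 42305 CPM). Markers of periderm, the transient outermost layer, summed to 726 and 669 against 2272 and 2281 CPM, with 5 of 7 risen and 1 fallen, which was 0 without E15.5 control replicate 1 or knockout replicate 2. Merkel cell markers summed to 34.2 and 28.2 against 7.59 and 9.01 CPM, with 5 of 7 fallen (as few as 3 under other settings). Adipocyte markers summed to 270 and 251 against 235 and 218 CPM, and T cell markers to 5.55 and 4.69 against 3.92 and 5.49 CPM. Skeletal muscle markers summed to 14221 and 10783 CPM in controls and to 19972 and 19040 CPM in knockouts, with 7 of 9 risen. Mesothelium markers summed to 84.7 and 177 against 444 and 520 CPM, with 3 of 4 tested risen. Pericyte and smooth muscle markers summed to 543 and 518 against 902 and 865 CPM, with 4 of 7 risen. Chondrocyte markers summed to 6.23 and 8.10 against 53.3 and 10.2 CPM, highest in knockout replicate 1. Of 17 marker lists, 1 gene, Cd3d of the T cell list, was at 0 in all 4 libraries. In bulk RNA, fewer cells of a type and less RNA per cell cannot be told apart, and a larger share of dermal RNA and a change within the cells cannot be told apart either. How far these markers account for any result that follows was not tested.

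Of 16342 genes tested, 3792 rose and 3639 fell, 23.2% and 22.3%, and the median log2 fold change over all genes was 0.00. These shares are the background against which the counts of each list are read. Among 313 genes of secreted factors 124 rose and 79 fell, with a median of 0.37. Among 404 transcription factor genes 106 rose and 117 fell (median -0.01), among 538 genes of signalling and metabolic pathways 150 rose and 194 fell (median -0.07), and among 227 genes of the non-coding lists 36 rose and 24 fell (median 0.10); in the last class the risen number was 23 without E15.5 control replicate 1 and 21 without knockout replicate 1, and the fallen number 11 without control replicate 2. The groups did not overlap for 74.4% of all genes tested.

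**Figure D1:**
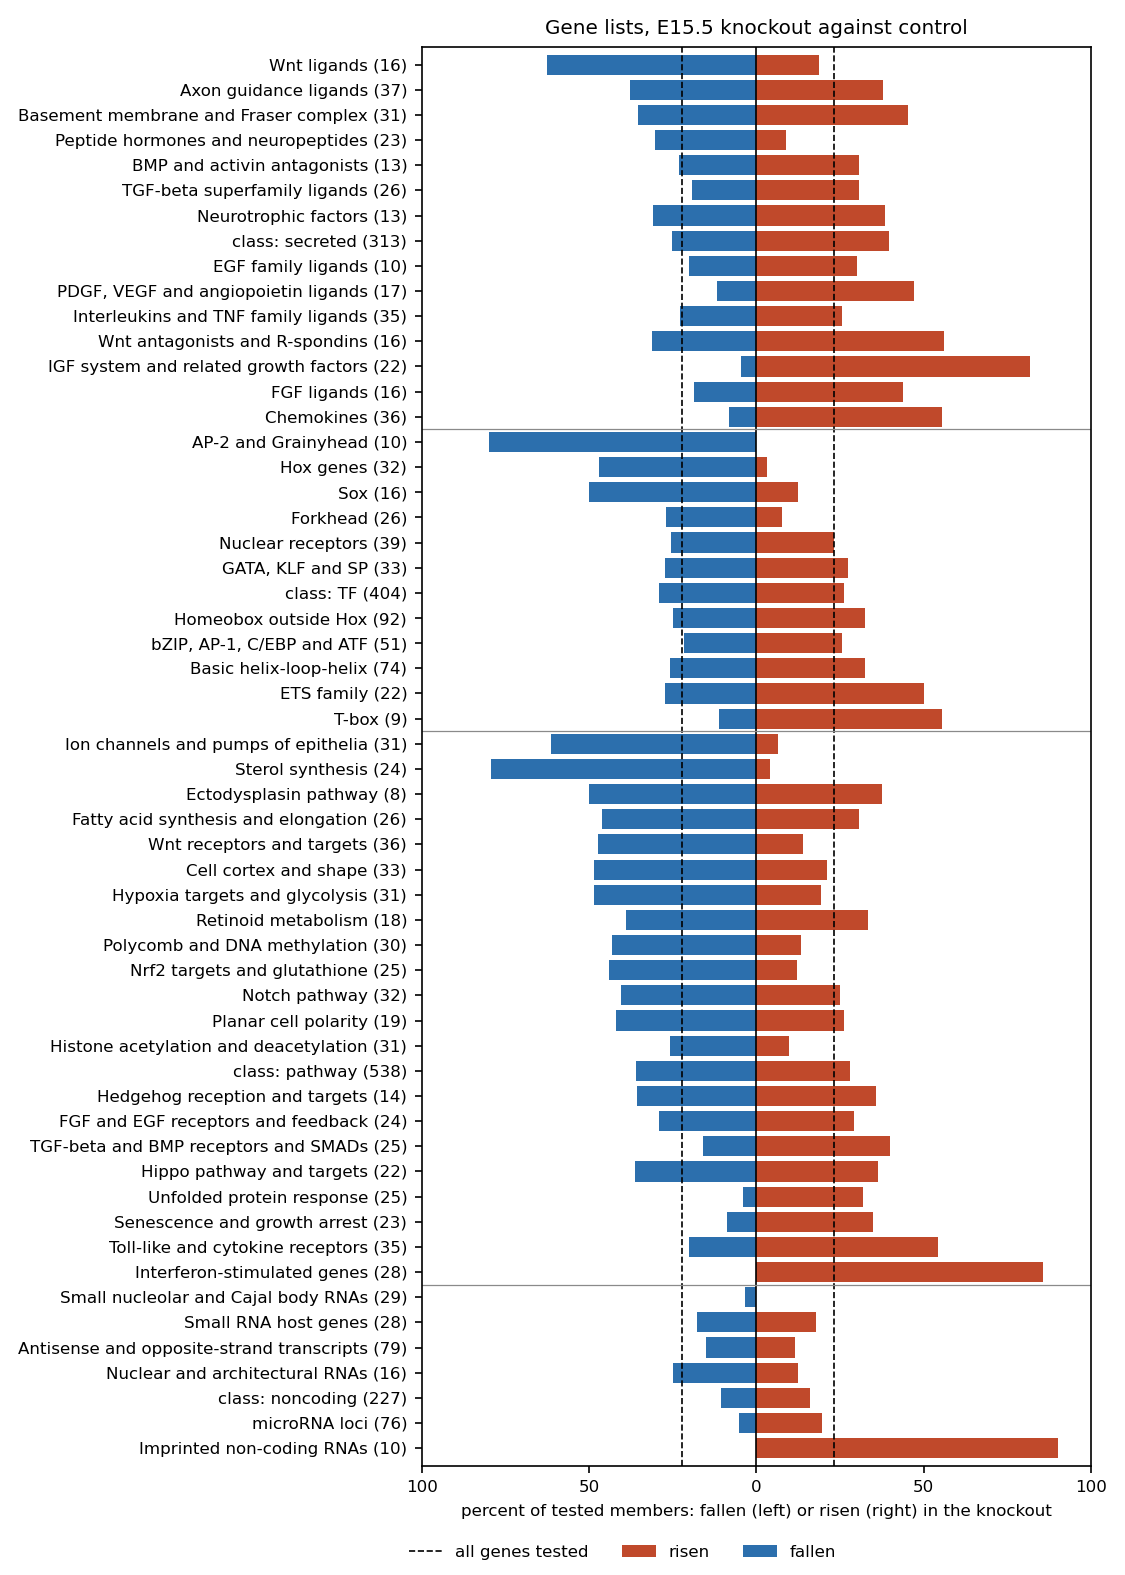
Percent of the tested members of each list that rose (red, right) or fell (blue, left) in knockout epidermis at E15.5; the number tested stands in brackets, dashed lines mark the 23.2% and 22.3% of all genes tested, and grey lines part secreted factors, transcription factors, pathways and non-coding RNAs. AP-2 and Grainyhead factors, sterol synthesis and Wnt ligands extend farthest to the left, and imprinted non-coding RNAs, interferon-stimulated genes and the IGF system farthest to the right.

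Wnt ligands fell more often than they rose in knockouts. Of 16 Wnt genes tested (of 19), 10 fell and 3 rose, with a median log2 fold change of -1.30, against 22.3% fallen among all genes. Wnt3a (chromosome 11, 59248036 to 59290751) stood at 5.89 and 7.22 CPM in controls and at 0.148 and 0.0704 CPM in knockouts (-5.86 ± 0.52, adjusted p = 4.9e-06), and -6.46 with knockout replicate 1 of E15.5 left out. Wnt10b, a Wnt of the hair placode, fell from 27.3 and 29.7 CPM to 2.00 and 1.41 CPM (-4.07 ± 0.20, adjusted p = 6.1e-08). Wnt16 fell from 13.1 and 15.9 CPM to 0.888 and 1.30 CPM (-3.72 ± 0.27, adjusted p = 1.2e-06). For all 3 genes each control library lay above both knockout libraries, but the rule that picks the largest changes required this. The groups did not overlap for 74.4% of all genes tested. Wnt4 and Wnt3, chosen after their values were seen, and Wnt6 fell as well (-1.07 ± 0.10, -2.47 ± 0.21 and -2.37 ± 0.15).

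The Wnt genes that rose were Wnt2, Wnt9a and Wnt5a. Wnt2, a ligand of mesenchyme in several organs, stood at 2.91 and 0.999 CPM in controls and at 14.2 and 10.7 CPM in knockouts (2.66 ± 0.36, adjusted p = 0.00012), and at 3.63 without E15.5 control replicate 1. Wnt9a rose from 3.44 and 3.69 CPM to 13.5 and 9.71 CPM (1.71 ± 0.20, adjusted p = 4.3e-05). Wnt5a, which signals outside the beta-catenin branch, stood at 38.9 and 41 against 45.5 and 59.0 CPM (0.39 ± 0.13, adjusted p = 0.033); it did not pass with control replicate 1 (0.35, adjusted p = 0.14), control replicate 2 (0.42, 0.086) or knockout replicate 2 (0.18, 0.33) of the stage left out. These rises stood beside the rise of the fibroblast markers (median 1.23).

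Secreted Wnt antagonists and R-spondins, which respectively block and boost Wnt signalling, split. Of 16 tested, 9 rose and 5 fell (median 0.80). The fallen members included Dkk1, an antagonist that binds the Wnt co-receptor, which went from 7.89 and 8.53 CPM to 0.888 and 0.950 CPM (-3.15 ± 0.28, adjusted p = 4.4e-06). Notum, an enzyme that inactivates Wnt proteins, fell from 7.40 and 6.22 to 1.52 and 2.15 CPM (-1.89 ± 0.28). Rspo3, an R-spondin, rose from 15.1 and 17.4 to 27.1 and 30.4 CPM (0.82 ± 0.12), and Sfrp5, a decoy receptor, from 3.40 and 3.99 to 9.22 and 12.8 CPM (1.57 ± 0.22).

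On the receiving side, 17 of 36 Wnt receptors and targets fell and 5 rose (3 without E15.5 control replicate 2, 2 without E15.5 knockout replicate 1 and 8 with upper quartile scaling), with a median of -0.34. Lgr6, an R-spondin receptor that marks epidermal progenitors, fell from 40.3 and 39.5 CPM to 0.444 and 0.422 CPM (-6.51 ± 0.21, adjusted p = 4.7e-09). Lef1, a DNA-binding partner of beta-catenin, fell from 70.8 and 70.3 to 9.03 and 7.49 CPM (-3.09 ± 0.15), and the Wnt receptor gene Fzd10 from 111 and 107 to 21.4 and 22.3 CPM (-2.32 ± 0.12). Ror2, a receptor for Wnt5a, rose from 29.6 and 28.0 to 54.2 and 51.9 CPM (0.88 ± 0.10). Axin2, a general target of beta-catenin chosen after its values were seen, stood at 79.2 and 81.3 against 43.4 and 46.3 CPM, a smaller fall (-0.84 ± 0.10, adjusted p = 5.1e-05).

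Hedgehog signalling starts from Shh, the ligand of hair placodes (chromosome 5, 28456840 to 28467101), which stood at 26.1 and 27.5 CPM in controls and at 0.296 and 0.211 CPM in knockouts (-6.70 ± 0.21). Of 14 genes that receive or answer the signal, 5 fell and 5 rose. Genes that the pathway itself induces were among the fallen. Ptch1, the Hedgehog receptor (chromosome 13, 63508328 to 63573460), went from 242 and 219 to 26.9 and 28.3 CPM (-3.06 ± 0.15, adjusted p = 4.3e-08). Gli1, a transcription factor switched on by the signal, fell from 185 and 172 to 32.5 and 34.5 CPM (-2.41 ± 0.10). The co-receptor gene Cdon rose from 115 and 120 to 172 and 175 CPM (0.56 ± 0.09), with the number of risen members at 1 without E15.5 control replicate 2 and at 2 without either knockout library of the stage. The binding sequence of GLI factors, TGGGTGGTC, searched on both strands, occurred in 0 of the 11 of these genes with a window in the RefSeq promoter table, which runs from 250 bases before to 50 bases after the start, against 0.259% of 12752 tested genes.

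Genes of the ectodysplasin pathway, which placodes need, moved both ways. Edar, the receptor gene (chromosome 10, 58600780 to 58675696), fell from 32.7 and 38.4 CPM to 0.148 and 0.528 CPM (-6.68 ± 0.32, adjusted p = 4.8e-08; -6.07 without E15.5 knockout replicate 1 and -7.87 without knockout replicate 2). Edaradd, its adaptor, fell from 31.8 and 35.0 to 6.74 and 8.72 CPM (-2.11 ± 0.15). The ligand gene Eda rose from 17.4 and 18.2 to 34.0 and 26.3 CPM (0.76 ± 0.16) and Eda2r, a second receptor, from 6.45 and 7.95 to 19.2 and 20.8 CPM (1.47 ± 0.20). In all 4 of 8 members fell and 3 rose.

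Of 26 ligands of the TGF-beta superfamily 8 rose (30.8%) and 5 fell (19.2%), with a median of 0.26. The shares of all genes were 23.2% and 22.3%. The risen number was 5 without E15.5 control replicate 2 or knockout replicate 1, and the fallen number 3 without either control library or with upper quartile scaling. Bmp2, a ligand of placodes and differentiating keratinocytes, fell from 40.1 and 52.7 to 3.11 and 3.73 CPM (-3.76 ± 0.24, adjusted p = 4.0e-07), and Bmp7 from 81.6 and 76.4 to 29.9 and 32.8 CPM (-1.33 ± 0.13). Bmp8a (chromosome 4, 123312645 to 123343252) went the other way, from 0.528 and 0.845 CPM to 8.22 and 8.13 CPM (3.57 ± 0.32, adjusted p = 5.7e-06). At E17.5 its change was 0.53 (adjusted p = 0.16), and the difference between the stages passed the test (3.04, adjusted p = 0.0043). Of 13 secreted antagonists of this family 4 rose (30.8%) and 3 fell (23.1%). Grem1, which binds BMPs, stood at 0.340 and 0.730 against 8.07 and 13.2 CPM (4.31 ± 0.38; 4.95 without E15.5 control replicate 2), whereas the epithelial antagonist gene Sostdc1 fell from 104 and 126 to 18.9 and 23.1 CPM (-2.45 ± 0.15).

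Of 16 FGF ligand genes 7 rose and 3 fell (median 0.94). Fgf22, a ligand made by keratinocytes, fell from 10.8 and 9.26 to 2.18 and 2.32 CPM (-2.15 ± 0.28). Fgf20, a placode ligand, had 111 counts in the controls together and 3 in the knockouts, a ratio of 39.1 with a 95% counting interval of 13 to 192 that covers counting error only. The fitted change of Fgf20 (-5.18) was -4.51 without E15.5 control replicate 2, -4.27 without knockout replicate 1 and -8.87 without knockout replicate 2. Fgf18 rose from 1.55 and 1.34 to 6.0 and 5.52 CPM (1.99 ± 0.28) and Fgf1 from 4.87 and 5.95 to 14.5 and 14.2 CPM (1.41 ± 0.19). The epithelial receptor genes Fgfr3 (84.6 and 83.6 to 6.18 and 4.43 CPM, -3.99 ± 0.17) and Fgfr2 (213 and 211 to 61.1 and 67.4 CPM, -1.72 ± 0.10) fell. Among EGF receptor ligands Btc fell from 149 and 188 to 2.33 and 3.31 CPM (-5.90 ± 0.23, adjusted p = 1.0e-08), while Tgfa rose from 39.0 and 45.9 to 62.5 and 66.5 CPM (0.60 ± 0.15, adjusted p = 0.0057; 0.49 and 0.060 without E15.5 control replicate 1). Of 10 such ligands 3 rose (1 without E15.5 control replicate 1) and 2 fell.

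Growth factors of the IGF system and related families came next. In the list of the IGF system and related growth factors 18 of 22 rose and 1 fell (median 0.85), below the median of the fibroblast markers (1.23). Igfbp5, an IGF-binding protein of mesenchyme, rose from 472 and 380 to 1664 and 1514 CPM (1.90 ± 0.14, adjusted p = 1.5e-06). Ccn3, a matricellular growth regulator, rose from 20.9 and 18.9 to 72.4 and 65.7 CPM (1.79 ± 0.20). Mst1, which encodes macrophage-stimulating protein, fell (3.47 and 5.22 to 0.999 and 1.76 CPM, -1.65 ± 0.36, adjusted p = 0.0032). Of 17 PDGF, VEGF and angiopoietin genes 8 rose and 2 fell, and those that fell were Pdgfa (66.5 and 62.7 to 12 and 15.2 CPM, -2.25 ± 0.13), with which epidermis signals to dermal cells, and Pdgfc (34.5 and 32.2 to 11.4 and 11.5 CPM, -1.55 ± 0.17).

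Interleukins and TNF family ligands were called near the shares of all genes. Of 35 interleukin and TNF family genes tested (of 50), 8 fell (22.9%) and 9 rose (25.7%), against 22.3% and 23.2% of all genes, and among the fallen were Il1rn, the antagonist of interleukin 1 (76.9 and 82.1 to 8.29 and 9.50 CPM, -3.16 ± 0.15), Il18 (108 and 117 to 28.0 and 30.0 CPM, -1.96 ± 0.14) and Il34, a ligand on which Langerhans cells depend (41.9 and 33.7 to 8.96 and 8.13 CPM, -2.14 ± 0.15). Il1a, chosen after its values were seen, fell from 27.6 and 29.7 to 4.37 and 2.53 CPM (-3.06 ± 0.30). Il33, an alarmin also made by stromal cells, rose from 3.36 and 2.34 to 8.07 and 6.33 CPM (1.33 ± 0.24).

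Of 36 chemokine genes 20 rose and 3 fell, with a median of 1.27, close to those of the fibroblast (1.23) and myeloid markers (1.22). Ccl2, which draws monocytes, rose from 2.08 and 1.81 to 12 and 24.8 CPM (3.24 ± 0.33, adjusted p = 1.5e-05; 2.62 without E15.5 knockout replicate 2). Ccl9 rose from 2.42 and 1.57 to 16.7 and 15.2 CPM (2.99 ± 0.20, adjusted p = 4.5e-07). The 3 that fell were Cx3cl1 (15.48 and 15.06 to 4.55 and 2.99 CPM, -2.02 ± 0.21), Cxcl14, an abundant epithelial chemokine (284 and 313 to 77.8 and 98.0 CPM, -1.76 ± 0.15), and Ccl6 (14.7 and 20.3 to 8.07 and 6.26 CPM, -1.29 ± 0.19). Ccl6 rose at E17.5 (1.82, adjusted p = 1e-05), and the difference between the stages was -3.11 (adjusted p = 0.00013).

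**Figure D2:**
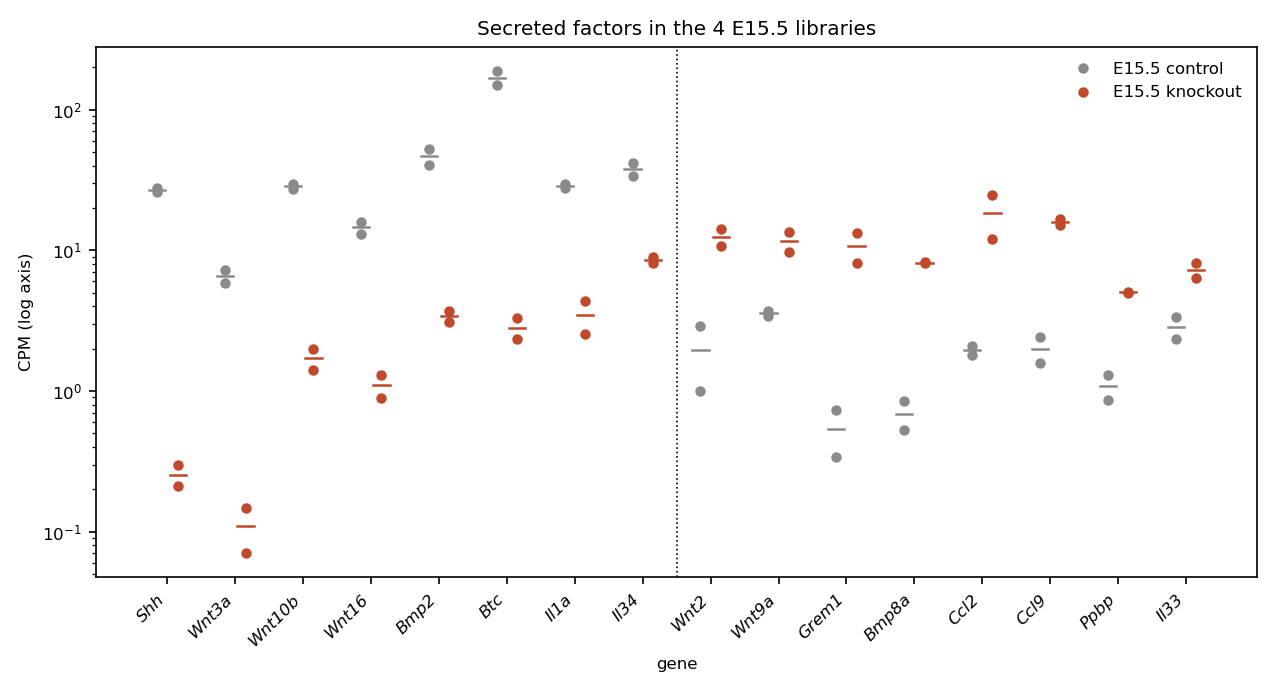
CPM (log axis) of 16 secreted factors in each E15.5 library, with control libraries in grey, knockout libraries in red and bars at group means. Left of the dotted line are genes that fell, among them Shh at 26.1 and 27.5 CPM against 0.296 and 0.211; right of it are genes that rose, among them Bmp8a at 0.528 and 0.845 CPM against 8.22 and 8.13.

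Guidance cues and trophic factors for nerves moved both ways. Of 37 axon guidance ligands 14 rose and 14 fell. Among the fallen were membrane-bound semaphorins, with Sema4g at 60.5 and 73.5 against 7.66 and 9.08 CPM (-3.0 ± 0.14) and Sema4a at 108 and 112 against 18.4 and 19.8 CPM (-2.53 ± 0.12). The secreted cues Sema3c (60.7 and 44.6 to 198 and 171 CPM, 1.81 ± 0.17), Ntn1 (99.9 and 97.7 to 238 and 234 CPM, 1.26 ± 0.13) and Slit3 (89.7 and 95.3 to 185 and 168 CPM, 0.93 ± 0.10) rose. Of 13 neurotrophic factors 5 rose (3 without E15.5 control replicate 2 or either knockout library) and 4 fell (2 and 1 without E15.5 control replicates 1 and 2). Ntf3, a survival factor of sensory neurons, fell from 2.68 and 4.46 to 0.518 and 1.55 CPM (-1.77 ± 0.43, adjusted p = 0.0061), and did not pass with control replicate 2 of the stage left out (-1.37, adjusted p = 0.062), with -2.77 without knockout replicate 2. Gdnf rose from 3.74 and 3.5 to 10.2 and 11.4 CPM (1.58 ± 0.29).

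Of 31 basement membrane genes 14 rose and 11 fell. Chains of laminin-332, the laminin under hemidesmosomes, were among the fallen. Lamb3 went from 88.0 and 84.0 to 7.07 and 6.19 CPM (-3.70 ± 0.13, adjusted p = 5.3e-09) and Lama3 from 123 and 126 to 18 and 19 CPM (-2.77 ± 0.14). Lamc3 fell from 51.7 and 50.8 to 1.78 and 3.87 CPM (-4.17 ± 0.25; -4.85 without E15.5 knockout replicate 2). Tnc, a tenascin of growing and healing mesenchyme, rose from 127 and 106 to 667 and 513 CPM (2.34 ± 0.15). Nid1, a linker present in most basement membranes and chosen after its values were seen, rose from 515 and 457 to 1030 and 827 CPM (0.93 ± 0.14).

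Among hormones and neuropeptides 7 of 23 fell and 2 rose (1 without E15.5 control replicate 2). Pthlh, through which epidermis signals to dermis, fell from 6.68 and 6.38 to 0.962 and 1.2 CPM (-2.59 ± 0.24, adjusted p = 6.2e-06). Edn2, an endothelin, fell from 4.61 and 3.57 to 0.814 and 0.387 CPM (-2.77 ± 0.36; -3.39 without E15.5 knockout replicate 1).

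Among transcription factors the AP-2 and Grainyhead families were taken first. In the list of AP-2 and Grainyhead factors, which drive keratinocyte genes downstream of or beside p63, 8 of 10 tested members fell and 0 rose (edgeR; 0 also at an unadjusted p under 0.05 and by DESeq2, and 1 with upper quartile scaling), with a median of -2.55. Trp63 itself stood at 210 and 234 CPM in controls and at 14.9 and 19.8 CPM in knockouts (-3.67 ± 0.16). Tfap2e fell from 6.76 and 7.37 to 0.0740 and 0.141 CPM (-5.97 ± 0.35, adjusted p = 2.0e-07), Tfap2c from 54.1 and 55.5 to 6.88 and 8.34 CPM (-2.85 ± 0.13, adjusted p = 3.3e-08) and Grhl2 from 49.3 and 51.1 to 6.29 and 7.81 CPM (-2.83 ± 0.14, adjusted p = 6.5e-08). Grhl3, needed for barrier formation and chosen after its values were seen, fell less, from 112 and 125 to 39.5 and 53.4 CPM (-1.35 ± 0.18). The palindrome AACCGGTT, a core Grainyhead site, occurred in the promoter window of 0.416% of fallen and 0.280% of risen genes, against 0.282% of all tested genes with a window.

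Homeobox genes moved both ways. Of 92 homeobox genes outside the Hox clusters 30 rose (32.6%) and 23 fell (25%), against 23.2% and 22.3% of all genes. Lhx2, a factor of follicle progenitors, fell from 69.5 and 56.3 to 0.925 and 1.2 CPM (-5.88 ± 0.19), Irx4 from 63.6 and 54.7 to 2.04 and 2.96 CPM (-4.56 ± 0.18) and Pou2f3, a POU factor of suprabasal keratinocytes (chromosome 9, 43123927 to 43205755), from 150 and 152 to 7.70 and 7.81 CPM (-4.28 ± 0.15, adjusted p = 5.8e-09). Zeb1, a repressor of epithelial genes, rose from 56.7 and 54.8 to 150 and 151 CPM (1.43 ± 0.09, adjusted p = 3.7e-07), and Zfhx4 from 49.4 and 41.8 to 108 and 101 CPM (1.2 ± 0.12). The homeobox gene Nkx2-9 (chromosome 12, 56611389 to 56613569), a neural tube gene chosen after its values were seen, had 0 counts in the controls and 126 in the knockouts together, at 2.70 and 1.86 CPM. It was at least 39.8-fold higher, against a floor of 3 counts over the group.

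Hox genes, which record position along the body, fell more often than they rose. Of 32 tested, 15 fell (46.9%, against 22.3% of all genes) and 1 rose, with a median of -0.43. Hoxa7 fell from 26.4 and 22.8 to 7.22 and 8.09 CPM (-1.68 ± 0.17) and Hoxb8 from 19.8 and 18.2 to 5.0 and 5.07 CPM (-1.92 ± 0.23). The risen gene was Hoxd3 (8.15 and 10.9 to 15.6 and 14.7 CPM, 0.67 ± 0.22, adjusted p = 0.027), which did not pass with control replicate 1 of the stage left out (adjusted p = 0.19) or knockout replicate 1 (0.10) or 2 (0.061). The number of risen Hox genes was 0 without E15.5 control replicate 1 or knockout replicate 1, 2 to 3 without any of the other libraries and 4 with upper quartile scaling.

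Sox and forkhead genes were the next families. Of 16 Sox genes 8 fell and 2 rose, with Sox21, a factor of hair cuticle, from 19.6 and 18.3 to 0.592 and 0.352 CPM (-5.32 ± 0.27) and Sox4 from 136 and 171 to 65.8 and 54.6 CPM (-1.35 ± 0.13). The 2 that rose were Sox8 (5.32 and 4.22 to 14.7 and 13.7 CPM, 1.57 ± 0.19) and Sox10, a factor of melanocytes and Schwann cells (25.5 and 24.5 to 34.6 and 41.7 CPM, 0.61 ± 0.12). Schwann cell and neuron markers summed to 83.3 and 82.3 CPM in controls and 130 and 128 CPM in knockouts, with 4 of 7 risen and 2 fallen (1 without any single E15.5 library). Of 26 forkhead genes 7 fell (26.9%, against 22.3% of all genes) and 2 rose (1 without any single E15.5 library). Foxi3, a target of ectodysplasin in placodes, fell from 18.1 and 12.7 to 0.111 and 0.281 CPM (-6.25 ± 0.34; -7.06 without E15.5 knockout replicate 2), and Foxn1, the nude gene, from 21.3 and 17 to 1.92 and 1.72 CPM (-3.39 ± 0.21).

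GATA, KLF and SP factors gave 9 risen and 9 fallen of 33, 27.3% each way, against 23.2% and 22.3% of all genes. The shares risen and fallen were 32.4% and 25.7% for basic helix-loop-helix genes and 25.5% and 21.6% for bZIP genes. Gata3 fell from 122 and 146 to 10.9 and 17.1 CPM (-3.26 ± 0.19, adjusted p = 1.6e-07) and Klf5 from 118 and 136 to 46.4 and 46.7 CPM (-1.45 ± 0.10), whereas Gata2 rose from 47.5 and 54.0 to 106 and 95.3 CPM (0.99 ± 0.12) and Gata6 from 3.51 and 2.77 to 8.51 and 9.01 CPM (1.48 ± 0.20). Among basic helix-loop-helix genes 24 of 74 rose and 19 fell, with Mycl from 66.5 and 62.6 to 5.96 and 7.42 CPM (-3.27 ± 0.18) and Mycn from 23.6 and 17.8 to 4.55 and 5.35 CPM (-2.06 ± 0.17). Among bZIP genes 13 of 51 rose and 11 fell (7 without E15.5 control replicate 2 or knockout replicate 1). Of 22 ETS genes 11 rose (7 without E15.5 control replicate 1 or knockout replicate 2) and 6 fell, with Erg, a factor of endothelium, at 14.7 and 12 against 32.5 and 36.4 CPM (1.37 ± 0.17) and Etv3 at 86.2 and 88.3 against 30.3 and 33.8 CPM (-1.44 ± 0.11).

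Interferon-stimulated genes rose almost throughout. Of 28 genes tested 24 rose and 0 fell (edgeR; 0 also at an unadjusted p under 0.05 and by DESeq2), with a median of 1.42, against 23.2% risen among all genes, and at E17.5 28 of 28 rose, against 26.7% of all genes. Rsad2, which encodes the antiviral enzyme viperin, stood at 4.91 and 2.80 CPM in controls and at 26.9 and 28.8 CPM in knockouts (2.85 ± 0.21, adjusted p = 1.2e-06). Ifit1, an RNA-binding effector, rose from 0.604 and 1.23 to 3.70 and 7.92 CPM (2.66 ± 0.46, adjusted p = 0.00070; 3.26 without E15.5 control replicate 2 and 2.01 without knockout replicate 2). Ifit3 rose from 1.89 and 1.73 to 5.63 and 9.64 CPM (2.08 ± 0.30), the RNA sensor gene Ddx58 from 14.5 and 13.5 to 35.1 and 43.7 CPM (1.49 ± 0.14, adjusted p = 8.6e-06) and Oas2 from 4.42 and 3.61 to 15.2 and 13.1 CPM (1.82 ± 0.16). In each of these genes both knockout libraries lay above both controls, as the groups did not overlap for 74.4% of all genes tested. For Rsad2, Ifit1 and Ifit3 the rule that picks the largest changes required it. The 4 members that did not pass were Stat2, Ifitm1, Mx1 and Ifi44; without single libraries Ifi44 passed (1.28, adjusted p = 0.0072, without E15.5 knockout replicate 1), as did Ifitm1 (0.51, 0.027, without control replicate 2) and Stat2 (0.32, 0.040 and 0.042, without E17.5 control replicates 1 and 2).

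The promoters of these genes are shown because most of them hold the sequence that interferon-activated factors read. The core of the interferon-stimulated response element, GAAA followed after any 2 bases by GAAA again, was searched on both strands in the RefSeq promoter windows of GRCm38.p6, where matches may overlap. It occurred in 13 of the 21 interferon-stimulated genes with a window (61.9%), against 3.65% of 12752 tested genes, 5.07% of all risen and 2.95% of all fallen genes. Capitals mark the matches in the windows of Rsad2 (chr12:26456403-26456702, minus strand), Ifit1 (chr19:34640639-34640938, plus strand) and Ifit3 (chr19:34583279-34583578, plus strand). The first match starts 120 bases before the start of Rsad2, 104 before that of Ifit1 and 156 before that of Ifit3.
Rsad2: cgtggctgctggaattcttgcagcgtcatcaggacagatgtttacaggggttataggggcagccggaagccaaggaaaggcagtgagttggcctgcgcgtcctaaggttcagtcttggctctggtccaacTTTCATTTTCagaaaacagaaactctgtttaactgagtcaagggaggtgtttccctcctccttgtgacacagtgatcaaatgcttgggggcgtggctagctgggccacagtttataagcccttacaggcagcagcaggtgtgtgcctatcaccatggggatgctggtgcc
Ifit1: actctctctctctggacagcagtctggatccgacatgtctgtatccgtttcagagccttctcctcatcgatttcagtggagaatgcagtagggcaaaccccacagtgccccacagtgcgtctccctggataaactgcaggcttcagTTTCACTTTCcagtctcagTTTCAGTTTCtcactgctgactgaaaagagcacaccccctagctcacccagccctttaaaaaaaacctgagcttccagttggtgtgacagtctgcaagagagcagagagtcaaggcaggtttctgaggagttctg
Ifit3: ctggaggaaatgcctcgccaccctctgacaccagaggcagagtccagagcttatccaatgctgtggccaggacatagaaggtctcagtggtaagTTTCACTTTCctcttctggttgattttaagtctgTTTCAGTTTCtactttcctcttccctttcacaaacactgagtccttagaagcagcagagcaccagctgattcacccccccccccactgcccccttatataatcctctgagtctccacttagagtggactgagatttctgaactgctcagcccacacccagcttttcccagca

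Receptors for microbial patterns and cytokines rose in 19 of 35 cases and fell in 7. Tlr5, a flagellin receptor, rose from 6.15 and 6.26 to 22.7 and 25.3 CPM (1.95 ± 0.18) and Il1rl1, the receptor of interleukin 33, from 46.8 and 47.4 to 171 and 169 CPM (1.85 ± 0.11, adjusted p = 1.6e-07), beside a rise of mast cell markers, which also express it, in 4 of 5 cases. The fallen receptors, 20% of the list against 22.3% of all genes, included Il20rb, from 131 and 138 to 6.88 and 8.87 CPM (-4.10 ± 0.20), Il22ra1 from 103 and 102 to 12.9 and 17.8 CPM (-2.74 ± 0.16) and Il17rc from 80.8 and 85.0 to 21.4 and 17.8 CPM (-2.08 ± 0.12).

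Sterol synthesis fell along nearly the whole path. Of 24 genes tested 19 fell and 1 rose, with a median of -1.02, against 22.3% fallen among all genes. Dhcr7, the last step to cholesterol (chromosome 7, 143823167 to 143848410), went from 170 and 205 to 38.2 and 30.3 CPM (-2.45 ± 0.14, adjusted p = 1.8e-07), Mvk from 61.9 and 56.3 to 19 and 16.5 CPM (-1.73 ± 0.12) and Sqle from 106 and 104 to 43.8 and 51.1 CPM (-1.14 ± 0.11). A sterol response sequence, TCACNCCAC, occurred in 1 of the 16 sterol genes with a promoter window (6.25%), Hmgcs1, against 1.45% of all tested genes.

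**Figure D3:**
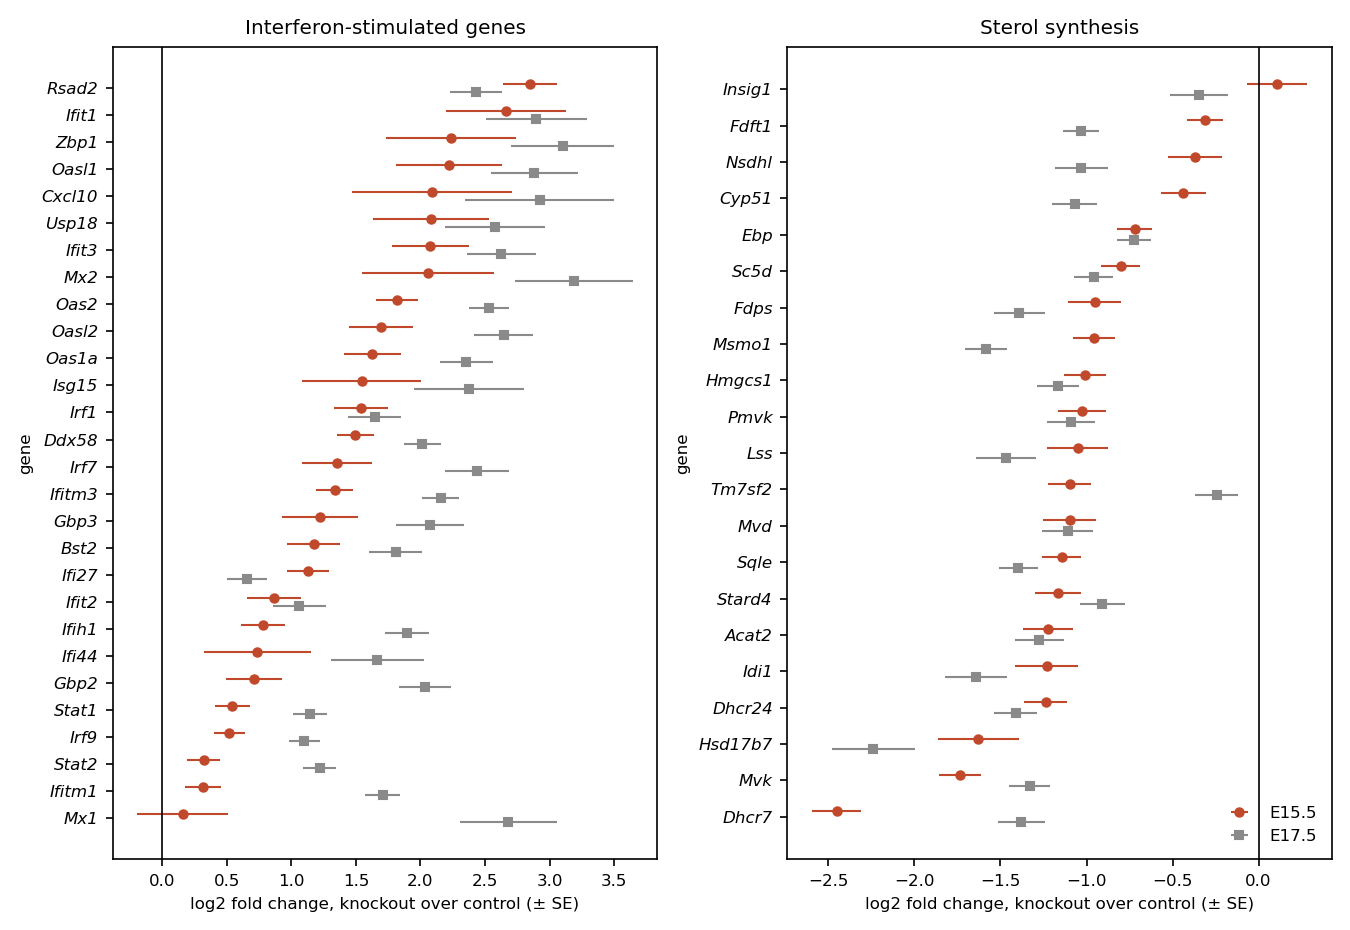
Log2 fold change of knockout over control (± SE) for the 28 interferon-stimulated genes and 21 of the 24 sterol synthesis genes, at E15.5 (red circles) and E17.5 (grey squares). Every interferon-stimulated gene lies to the right of 0 at E15.5 (0.16 to 2.85), and all sterol genes plotted but Insig1 lie to the left of it; the 3 genes not plotted are not reported here and include the 1 that rose.

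Of 26 genes of fatty acid synthesis and elongation 12 fell and 8 rose (5 without E15.5 control replicate 1, and 2 without control replicate 2 or knockout replicate 1). Acsbg1, which activates long fatty acids, fell from 181 and 202 to 13.2 and 14.6 CPM (-3.78 ± 0.13, adjusted p = 5.8e-09), Acsl1 from 294 and 303 to 54.2 and 62.4 CPM (-2.35 ± 0.14) and Elovl1, an elongase of very long chains chosen after its values were seen, from 672 and 767 to 205 and 231 CPM (-1.72 ± 0.13). Hypoxia targets and glycolytic genes fell in 15 of 31 cases (9 without E15.5 control replicate 2) and rose in 6, with a median of -0.31. Slc2a1, the main glucose transporter of keratinocytes, fell from 168 and 227 to 82.1 and 90.2 CPM (-1.2 ± 0.13), whereas Slc2a3, another glucose transporter, rose from 6.27 and 11.9 to 33.2 and 53.2 CPM (2.25 ± 0.30). The collagen hydroxylases P4ha1 (84.8 and 96.8 to 206 and 207 CPM, 1.18 ± 0.10) and P4ha2 (95.2 and 92.7 to 262 and 248 CPM, 1.44 ± 0.11) rose with the fibroblast markers.

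Channels and pumps of epithelia fell in 19 of 31 cases and rose in 2 (1 without either E15.5 control library, without knockout replicate 2 or with the stricter filter), with a median of -1.43. Aqp3, the water and glycerol channel of basal cells, fell from 128 and 145 to 2.63 and 2.22 CPM (-5.81 ± 0.15, adjusted p = 4.7e-09). Proton and anion carriers fell with it, Atp6v1b1 from 22.3 and 16.0 to 0.111 and 0.0704 CPM (-7.66 ± 0.32), Atp6v0a4 from 17.3 and 21.7 to 0.777 and 0.739 CPM (-4.68 ± 0.24) and Slc4a9 from 19.6 and 22.8 to 0.407 and 0.809 CPM (-5.10 ± 0.27).

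Pathways of cell contact and cell shape changed in part. Of 32 Notch genes 13 fell and 8 rose, with the ligand gene Jag2 from 83.6 and 74.8 to 31.0 and 29.4 CPM (-1.39 ± 0.11) and Nrarp, a target, from 142 and 138 to 36.4 and 41.9 CPM (-1.83 ± 0.11). Of 19 planar cell polarity genes 8 fell and 5 rose. Celsr1, which orients hair follicles, fell from 158 and 132 to 30.6 and 26.5 CPM (-2.34 ± 0.14), while the giant cadherin genes Fat4 (71.3 and 77.0 to 350 and 339 CPM, 2.21 ± 0.10, adjusted p = 3.9e-08) and Dchs1 (107 and 89.7 to 218 and 177 CPM, 1.01 ± 0.12) rose. Of 33 genes of the cell cortex and cell shape 16 fell and 7 rose. The epithelial splicing factor genes in that list, Esrp1 (278 and 286 to 38.4 and 51.8 CPM, -2.64 ± 0.15) and Esrp2 (154 and 148 to 21.7 and 25.0 CPM, -2.69 ± 0.13), fell. Of 22 Hippo genes 8 fell and 8 rose (5 without E15.5 control replicate 1, 4 without knockout replicate 2), with Ajuba from 105 and 119 to 38.7 and 32.2 CPM (-1.66 ± 0.12) and Axl from 112 and 108 to 296 and 250 CPM (1.31 ± 0.13).

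Lists of chromatin genes held members of both directions. Noc2l is known to inhibit histone acetylation. Of 31 genes of histone acetylation and deacetylation 8 fell (25.8%) and 3 rose (9.68%), against 22.3% and 23.2% of all genes. The changes in this list ranged from -0.72 to 0.69. The fallen number was lower without any single E15.5 library and 4 with upper quartile scaling. Hdac1 fell from 43.4 and 51.9 to 27.8 and 30.3 CPM (-0.72 ± 0.13) and Hdac7 rose from 78.2 and 80.7 to 138 and 119 CPM (0.69 ± 0.11). Of 30 Polycomb and DNA methylation genes 13 fell and 4 rose (2 without any single E15.5 library), with Cbx7 from 13 and 12.6 to 4.18 and 2.99 CPM (-1.84 ± 0.21) and Cbx2 from 57.2 and 49.0 to 19.6 and 17 CPM (-1.54 ± 0.13).

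Stress programmes were uneven. Of 25 Nrf2 target and glutathione genes 11 fell and 3 rose, with Gsta1 from 26.2 and 34.6 to 1.81 and 1.86 CPM (-4.04 ± 0.24) and Gpx3, a secreted peroxidase, from 18.5 and 21.4 to 131 and 140 CPM (2.77 ± 0.16, adjusted p = 1.5e-07). Of 25 unfolded protein response genes 8 rose (3 without E15.5 control replicate 2, 4 without knockout replicate 1) and 1 fell, Trib3 (14.4 and 21.5 to 4.22 and 4.57 CPM, -2.03 ± 0.21). Of 23 senescence and growth arrest genes 8 rose and 2 fell (1 without E15.5 control replicate 1 or knockout replicate 1). Cdkn1c, an imprinted cell cycle inhibitor, rose from 656 and 602 to 1334 and 1222 CPM (1.02 ± 0.12), whereas Cdkn1a, the inhibitor that p53 induces, stood at 364 and 442 against 437 and 517 CPM and did not pass (0.24 ± 0.14, adjusted p = 0.17); it was chosen after its values were seen.

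Retinoid metabolism shifted between enzymes. Of 18 genes 7 fell and 6 rose. Rdh1, which oxidizes retinol, fell from 25.7 and 28.5 to 1.48 and 1.55 CPM (-4.16 ± 0.20, adjusted p = 4.7e-08) and Rbp2 from 126 and 166 to 16.3 and 16.6 CPM (-3.15 ± 0.16). Aldh1a3, which makes retinoic acid, rose from 1.89 and 1.15 to 8.11 and 7.67 CPM (2.37 ± 0.22, adjusted p = 6.6e-06). The receptor genes Rxra (378 and 347 to 166 and 158 CPM, -1.16 ± 0.11) and Rarg (198 and 206 to 93.6 and 93.0 CPM, -1.11 ± 0.09) fell. Of 39 nuclear receptor genes 10 fell (25.6%) and 9 rose (23.1%), against 22.3% and 23.2% of all genes.

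Non-coding genes were taken as a whole first. Of 1096 tested genes represented by a non-coding transcript 143 rose and 152 fell, 13% and 13.9%, beside 23.2% and 22.3% of all genes; the difference in shares was not tested. In the list of imprinted non-coding RNAs, 9 of 10 tested members rose and 0 fell (edgeR; 0 also at an unadjusted p under 0.05 and by DESeq2), with a median of 1.0. This list keeps only genes counted on a non-coding transcript; of the 2 protein-coding imprinted genes it therefore left out, Sgce rose (27.1 and 28.1 to 53.5 and 56.3 CPM, 0.99 ± 0.12) and Snrpn fell (16.9 and 15.1 to 8.51 and 10.4 CPM, -0.76 ± 0.16). Peg3os, an RNA made opposite the paternally expressed gene Peg3, rose from 150 and 162 to 348 and 381 CPM (1.22 ± 0.11, adjusted p = 5.4e-06), Gnasas1 from 13.1 and 12.8 to 28.3 and 29.0 CPM (1.14 ± 0.13) and Rian from 496 and 447 to 992 and 906 CPM (1.01 ± 0.13). Whether the count used strand is not stated, so reads of Peg3os and Gnasas1 cannot be told apart from those of a gene on the other strand. These rises stood beside that of the fibroblast markers (median 1.23), and whether they are linked was not tested.

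MicroRNA loci in a total RNA library count reads of the hairpin's host transcript, not the mature microRNA. Of 76 such loci tested (of 643), 15 rose and 4 fell, 19.7% and 5.26%. The risen number was 6, 5 and 6 without E15.5 control replicate 1, control replicate 2 or knockout replicate 1, and 8 with the stricter filter, and the fallen number was 2, 1 and 1 without control replicate 1, control replicate 2 or knockout replicate 2. Of the 15, 10 lie in 1 imprinted region of chromosome 12, from Dlk1 to Dio3 (109452485 to 110281097). This region was chosen after its values were seen. All 24 microRNA loci tested there had a log2 fold change above 0, with 10 risen, 0 fallen and a median of 1.19, and so had the 13 other genes tested, with 7 risen and 0 fallen (median 0.93). Of the 52 microRNA loci tested elsewhere 5 rose and 4 fell (median 0.03). The genes of the region share transcripts and reads and are not independent.

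**Figure D4:**
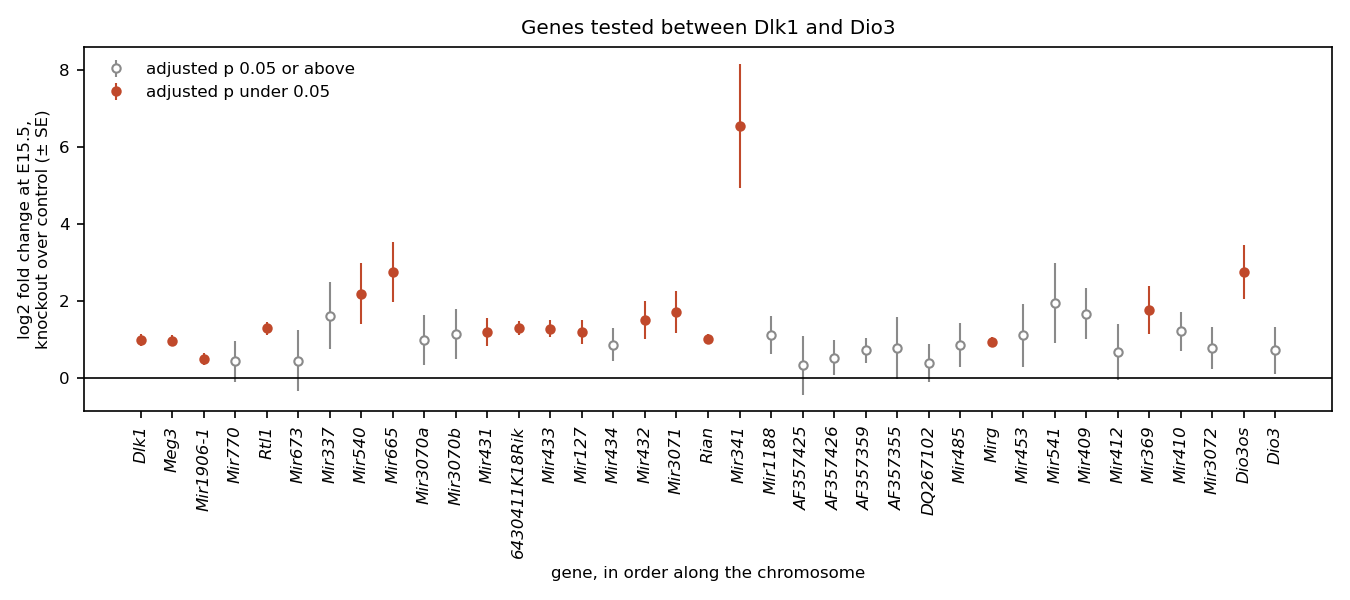
Log2 fold change of knockout over control at E15.5 (± SE) for the 37 genes tested between Dlk1 and Dio3, in order along the chromosome; filled red points passed the test and open grey points did not. All points lie above 0, and the abundant transcripts Dlk1, Meg3, Rian and Mirg lie close to 1, while loci with few reads have wide bars.

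The mature sequences of the 3 named loci of the region are shown to identify them, and those of Mir199a-2, which lies in the risen host transcript Dnm3os. Capitals mark the seed, bases 2 to 8, by which a microRNA finds its targets, and the sequences are from RefSeq (GRCm38.p6). No 2 of these arms share a seed.
mmu-miR-127-5p: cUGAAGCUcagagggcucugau
mmu-miR-127-3p: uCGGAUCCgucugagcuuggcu
mmu-miR-433-5p: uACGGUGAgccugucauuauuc
mmu-miR-433-3p: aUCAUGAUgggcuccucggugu
mmu-miR-431-5p: uGUCUUGCaggccgucaugca
mmu-miR-431-3p: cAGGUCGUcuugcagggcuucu
mmu-miR-199a-5p: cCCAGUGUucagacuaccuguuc
mmu-miR-199a-3p: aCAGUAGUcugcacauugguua

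Mir433 (chromosome 12) rose from 4.42 and 3.69 to 10.7 and 9.04 CPM (1.28 ± 0.23, adjusted p = 0.00086). Mir127 stood at 1.51 and 1.57 against 4.33 and 2.74 CPM (1.19 ± 0.30, adjusted p = 0.0077; 0.82 and 0.083 without E15.5 knockout replicate 1). Mir431 stood at 1.66 and 1.31 against 3.63 and 3.17 CPM (1.19 ± 0.37, adjusted p = 0.021), and did not pass with control replicate 1 of the stage left out (adjusted p = 0.051), control replicate 2 (0.12) or knockout replicate 1 (0.087). All 3 lie within the annotated span of Rtl1 on the opposite strand, and their reads cannot be told apart from those of Rtl1, which rose by 1.29 ± 0.17. Mir199a-2, chosen after its values were seen, stood at 0.264 and 0.154 against 0.629 and 1.06 CPM (1.99 ± 0.59, adjusted p = 0.017), and did not pass with control replicate 2 of the stage left out (0.12) or knockout replicate 2 (0.14). Its host Dnm3os, a skeletal and mesenchymal RNA, rose from 62.3 and 74.2 to 171 and 228 CPM (1.55 ± 0.14, adjusted p = 6.9e-06).

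Among the other non-coding genes Miat rose from 31.2 and 33.1 to 98.9 and 83.9 CPM (1.51 ± 0.13), while Sox2ot, the transcript around Sox2, fell from 3.93 and 3.80 to 0.370 and 0.317 CPM (-3.48 ± 0.40) as Sox2 did (3.81 and 4.26 to 0.518 and 0.422 CPM, -3.09 ± 0.33), and the 2 overlap. Firre, an X-linked architectural RNA, fell from 71.8 and 89.7 to 44.4 and 47.2 CPM (-0.82 ± 0.14). Of 28 host genes of small RNAs 5 rose and 5 fell (2 without E15.5 control replicate 2, 3 without knockout replicate 1), with Snhg1 from 22.9 and 37.5 to 15 and 17.1 CPM (-0.91 ± 0.21). Of 29 small nucleolar and Cajal body RNAs tested 0 rose (edgeR; 0 also at an unadjusted p under 0.05 and by DESeq2) and 1 fell, and that 1 was lost without any single E15.5 library, with the E15.5 libraries alone, with DESeq2 and with either other filter.

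Outside all lists, large rises were seen in genes with few or no counts in control epidermis. Krtap13 (chromosome 16, 88750744 to 88751628), a keratin-associated protein gene of hair, stood at 0 and 1.88 CPM in controls and at 110 and 113 CPM in knockouts (6.89 ± 0.55, adjusted p = 2.3e-06; 5.89 without E15.5 control replicate 1, and with 0 control counts left without control replicate 2). Krt34, a hair keratin, stood at 0.0755 and 0.346 against 4.63 and 5.03 CPM (4.50 ± 0.52, adjusted p = 3.6e-05; 3.79 and 5.92 without E15.5 control replicates 1 and 2). Spink12, a protease inhibitor gene, had 0 control counts and 252 in the knockouts together, at 3.63 and 5.42 CPM, at least 79.6-fold higher against the floor of 3 counts over the group. Lce3f, a cornified envelope gene, stood at 0.491 and 0.307 against 6.92 and 11.3 CPM (4.49 ± 0.37).

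Some of the largest falls outside the lists ended with no count in either knockout library, though that of Skint7 ended at 3 counts, from 822. Skint10, of a family with near-identical copies whose reads may be misassigned, had 898 control counts (15.9 and 18.3 CPM) and 0 in the knockouts, at least 316-fold lower. Otop3, a proton channel gene, had 724 against 0 counts (interval from 207-fold), and Cyp2b10 428 against 0 (from 122-fold). A4gnt, a glycosyltransferase gene, had 262 against 0 counts (interval from 74.4-fold).

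Most effects at E15.5 were shared with E17.5. Of the 3792 genes risen at E15.5, 3181 also rose at E17.5, 83.9% of the E15.5 and 72.8% of the E17.5 list, and 21 fell. Of the 3639 fallen genes 2934 also fell, 80.6% and 67.2% of the lists, and 25 rose. At E17.5 26.7% of all genes rose and 26.7% fell. The difference between the effects passed the test for 711 genes (4.35%), 403 with the higher (2.47%) and 308 with the lower effect (1.88%) at E15.5. With scaling by library totals the numbers were 655 and 142. Without single libraries they were 255 to 392 and 122 to 353, with the higher number at 258, 268 and 255 without E15.5 control replicates 1 and 2 and knockout replicate 2, and the lower at 184, 130, 201 and 122 without E15.5 control replicates 1 and 2 and knockout replicates 1 and 2 and at 175 and 137 without E17.5 control replicate 2 and knockout replicate 1.

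The genes with a higher effect at E15.5 included transcription factors that had fallen less at E15.5 than at E17.5. Dlx3, a factor of differentiating epidermis and hair (chromosome 11, 95120117 to 95125296), stood at 102 and 99.5 against 21.2 and 24.9 CPM at E15.5 (-2.12 ± 0.11) and changed by -5.44 at E17.5 (difference 3.32, adjusted p = 3.6e-06). Egr3 stood at 64.8 and 64.6 against 20.4 and 20.7 CPM (-1.66 ± 0.12, and -3.79 at E17.5; difference 2.13, adjusted p = 0.00012). Sp6, needed for skin appendages, stood at 98.1 and 106 against 38.8 and 48.8 CPM (-1.22 ± 0.15, and -4.09 at E17.5; difference 2.87, adjusted p = 0.00012). The suprabasal markers fell with a median of -2.55 at E15.5 and -5.21 at E17.5, and the difference was called higher for 6 of those 8 genes.

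The genes with a lower effect at E15.5 included Dhcr7 (-2.45 ± 0.14, and -1.38 at E17.5; difference -1.07, adjusted p = 0.0096). Tnc rose less at E15.5 than at E17.5 (2.34 ± 0.15 and 3.53; difference -1.19, adjusted p = 0.0069). Il4ra, a receptor of interleukins 4 and 13, stood at 33.2 and 34.3 against 60.8 and 58.1 CPM (0.82 ± 0.10, and 1.84 at E17.5; difference -1.02, adjusted p = 0.0014). Hk1, a hexokinase, stood at 106 and 115 against 87.2 and 82.9 CPM (-0.38 ± 0.10) and rose at E17.5 (0.35; difference -0.73, adjusted p = 0.013); it did not pass at E15.5 with control replicate 2 of that stage left out (adjusted p = 0.064) or knockout replicate 2 (0.059). Of the interferon-stimulated genes 6 had a lower effect at E15.5 and 0 a higher one.

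**Figure D5:**
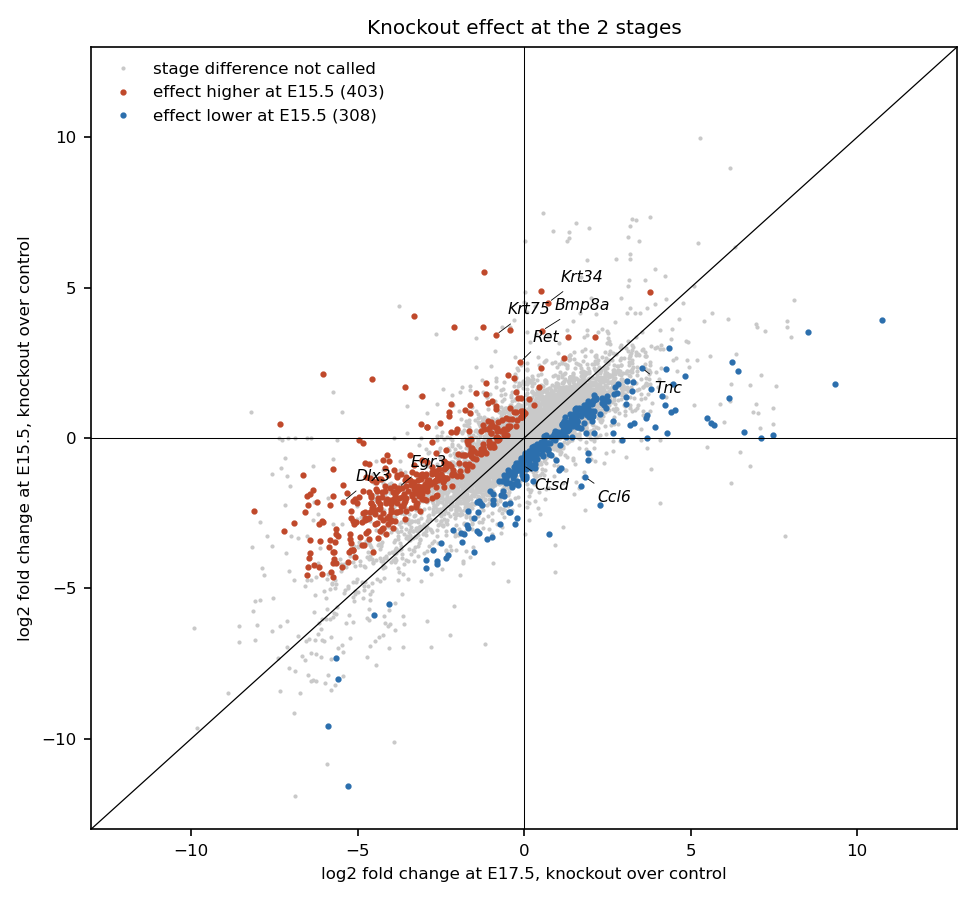
Log2 fold change of knockout over control at E15.5 (vertical) against that at E17.5 (horizontal) for the 16342 genes tested, with the line of equal effects. The 403 genes in red have a higher and the 308 in blue a lower effect at E15.5 by the test of the difference; Bmp8a, Krt34, Krt75 and Ret lie above the line and Ccl6, Ctsd and Tnc below it.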

How the data were processed

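RNA of 8 epidermis libraries was sequenced. The authors aligned the reads to mm10 with TopHat2 and counted them with HOMER, per the submitters' processing notes. The deposited values are raw counts per RefSeq transcript, and the HOMER version and strand setting are not stated. Of 30521 transcripts, 431 could not be named (2.08% of counts) and were left out. The transcript with the largest total stood for each of 23146 genes.

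edgeR 4.0.16 (R 4.3.3) fitted 1 mean per group over all 8 libraries, with TMM scaling, its filter on low counts and the quasi-likelihood test. P-values were adjusted by Benjamini-Hochberg over 16342 genes, with a threshold of 0.05; SE is the fold change over the root of F. The step was tested on simulated data. Alternatives were DESeq2 1.42.0, limma 3.58.1 (voom), other scalings and filters, summed transcripts, the stage alone, a replicate block and each library left out. Named genes were the target and Trp63, the members of each list with the smallest adjusted p and the largest changes per class. The largest changes were taken only among genes that passed the test and whose groups did not overlap. Members and lists were chosen with earlier results of these data known. Some genes are not reported here.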

Additional observations from a re-analysis of the deposited data

Results flagged for a closer look

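For these genes the test of the difference between the knockout effects at E15.5 and E17.5 passed, against 4.35% of all genes tested, and each value is the E15.5 effect minus the E17.5 effect on the log2 scale. Among genes that fell at E15.5 the effect was higher there for Acsbg1 by 0.76, Bmp7 by 1.0, Dlx3 by 3.32, Egr3 by 2.13, Esrp1 by 2.14, Esrp2 by 0.87, Foxn1 by 3.04 and Fzd10 by 1.08. It was also higher for Gata3 by 2.31, Gli1 by 0.72, Grhl2 by 1.58, Il22ra1 by 2.40, Irx4 by 1.95, Mycn by 1.24, Pou2f3 by 2.21 and Rbp2 by 1.61, and for Rdh1 by 1.5, Sp6 by 2.87, Tfap2c by 1.62, Wnt3 by 2.17 and Wnt4 by 1.05. Among genes that rose at E15.5 it was higher for Bmp8a by 3.04, Dct by 0.80, Krt34 by 3.78, Krt75 by 4.28, Pmel by 0.79, Ret by 2.64, Tgfa by 1.26 and Tyrp1 by 1.23.

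The effect was lower at E15.5 for Btc by -1.38, Ccl6 by -3.11, Ctsa by -0.86, Ctsd by -0.83, Dhcr7 by -1.07, Hk1 by -0.73, Ifi30 by -1.0, Il17rc by -0.73 and Wnt10b by -1.12 among fallen genes and for Il4ra by -1.02 and Tnc by -1.19 among risen genes. Of the interferon-stimulated genes that did not pass at E15.5, it was lower for Ifitm1 by -1.39, Mx1 by -2.52 and Stat2 by -0.90. Otop3 had a difference of -6.28, but it had 0 counts in the E15.5 knockouts, so that size depends on the prior count and is no bound.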

How the results depend on the processing

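Of 192 genes named with a value, 185 passed the test at E15.5. Of these, 177 passed in each of the 18 alternatives in which they were tested. A gene that the filter of an alternative removed was not counted as lost there. The other 8 lost the call only without single E15.5 libraries, and none reversed. The number of genes with a lower effect at E15.5 (308) was 517 with DESeq2 and 142 with scaling by library totals, and that with a higher effect (403) was 655 with scaling by totals. Without single libraries these numbers ranged from 122 to 353 and from 255 to 392, and over the non-coding lists the risen number (36) ranged from 21 to 38 and the fallen number (24) from 11 to 25. The causes were not tested. Upper quartile scaling moved the median of all genes by 0.09 and gave 4409 risen and 2965 fallen genes.

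The replicate numbers were not taken as pairs, since the labels do not say that they mark a shared litter and deviations from the group means correlated at 0.02 at E15.5 and -0.06 at E17.5. With a replicate block 7219 of the 7431 genes called at E15.5 were called, and the number with a lower effect at E15.5 was 524. With 2 libraries per group, leaving out 1 left a lone library that was assumed to vary like the others, and small changes or genes with few counts were not resolved.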

Other observations

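Genes of melanocytes, the pigment cells that enter the epidermis at this age, rose at E15.5. Of the 6 markers 5 rose and 0 fell (edgeR; 0 also at an unadjusted p under 0.05 and by DESeq2), their summed level was 165 and 178 CPM in controls and 302 and 416 CPM in knockouts, and at E17.5 1 of 6 rose. Tyrp1, an enzyme of melanin synthesis, stood at 7.40 and 7.99 against 62.1 and 96.1 CPM (3.36 ± 0.22, adjusted p = 4.7e-07), and Dct, another such enzyme, at 79.0 and 83.7 against 123 and 157 CPM (0.78 ± 0.12). Ret, a receptor of neural crest cells chosen after its values were seen, stood at 2.57 and 2.38 against 16.1 and 12.1 CPM (2.51 ± 0.21), with a change of -0.13 at E17.5.

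Lysosomal genes chosen after their values were seen fell at E15.5. Ctsd, a protease, stood at 816 and 870 against 455 and 460 CPM (-0.88 ± 0.11) and Ctsa, another, at 361 and 423 against 205 and 218 CPM (-0.89 ± 0.11). At E17.5 these changed by -0.05 and -0.03. Krt75, a follicle keratin also chosen after its values were seen, rose from 0.755 and 0.845 to 8.99 and 8.23 CPM (3.42 ± 0.28), with a change of -0.86 at E17.5.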
